A study of Mus musculus with 12 samples.

Results

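The genes described here carry out entry into mitosis, chromosome segregation and cell division. A list of 41 named genes was taken to the deposited expression table, and each gene was represented by the probe set annotated to it that had the highest mean over the 12 arrays. A probe set was found for 40 of them, out of 19938 genes in all. Ccnb1, the gene of cyclin B1, had no probe set listed in the platform annotation used and was skipped. Top2a had 2 probe sets and the other members 1 each. The members were sorted by role into 8 classes: the cyclins and their kinase, the mitotic kinases, the chromosomal passenger complex, the spindle checkpoint and anaphase machinery, the centromere and kinetochore, the spindle motors, the central spindle and cytokinesis proteins, and the chromosome condensation proteins.

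The study profiled mouse embryonic stem cells of the R1 line in which Set, which encodes a histone chaperone that also inhibits a phosphatase, was knocked down. Total RNA was hybridised to Affymetrix gene arrays, 1 array per sample, in 6 groups of 2 arrays. The lines were a scrambled infection control and 2 knockdown lines, KD1 and KD2, all on the R1 background. Each line was harvested as growing stem cells in 15% serum with 1000 U/ml of leukemia inhibitory factor (ESC), and after 4 days with 1 µM retinoic acid in 10% serum without that factor (RA). The labels call the lines clones, so each knockdown line may be 1 clone, and the 2 arrays of a group are replicates of 1 line. RA and ESC differ in retinoic acid, serum and the inhibitory factor at once, so their separate parts cannot be told apart.

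Cyclin A and cyclin B activate Cdk1, and polo and Aurora kinases then drive centrosome separation and spindle assembly. The spindle checkpoint holds the anaphase-promoting complex back until every kinetochore is attached. Separase is then released to open cohesin, and the central spindle and contractile ring divide the cell. The RNAs of these genes peak in G2 and M phase, so in a mixed culture their level follows the share of cells in those phases. Mouse embryonic stem cells divide fast with short gap phases, and differentiation is known to lengthen the cycle. In arrays of bulk RNA, fewer cells in G2 and M and less RNA of these genes per cell cannot be told apart.

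Before the results, 2 arrays need naming. The array labelled ESC KD2 replicate 2 correlated with the other ESC-labelled arrays at a mean r of 0.952 over all genes and with RA-labelled arrays at 0.986. The array labelled RA KD2 replicate 2 gave 0.952 with its own label and 0.986 with the ESC label. Their ESC markers went the same way: the median of 8 markers was 10.75 in the former and 12.74 in the latter, against 12.47 to 12.79 in the other 5 ESC arrays and 8.98 to 10.49 in the other 5 RA arrays. These are called the displaced arrays below, and each kept its labelled group. The members' counts of calls are given over 12 arrays and over the 10 arrays without them, and single genes over the fit or fits named beside them. With 10 arrays KD2 has a lone array in each state, whose spread is borrowed from the remaining groups. Set itself, read by the brighter of the probe sets shared with BC085271, lay at 12.71 to 12.93 in scrambled ESC and 11.87 to 12.15 in the 4 arrays labelled knockdown ESC; in RA it lay at 12.27 to 12.29 against 11.16 to 11.99. Another 2 probe sets, dimmer and listed for Set by itself, did not follow it in RA: they read 6.68 and 6.45, and 5.83 and 6.09, in scrambled RA, against 6.61 to 7.91 and 6.04 to 7.05 in the arrays labelled knockdown RA. In ESC they read 8.82 and 8.39, and 7.35 and 6.90, in scrambled cells, against 6.91 to 8.54 and 6.22 to 7.15.

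Replicate differences of the groups correlated within a state in all 6 pairs of groups (0.141 to 0.633 over all genes). Between states they correlated at -0.102 to 0.105, apart from -0.864 between the ESC and RA groups of KD2, which hold the displaced arrays. No label ties the replicate numbers to a day or batch. The numbers were left out of the fits. Counts that change with the number as a block within each state are given as the blocked fit, beside them or in the section on how the results depend on the processing.

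Many genes of this kind carry a cell cycle genes homology region in the promoter, which MuvB complexes bind, and CCAAT boxes, which NF-Y binds. RefSeq promoters of build GRCm38.p6 (250 bases before to 50 after the annotated start, the first listed per gene) were found for 33 of the 40 members. TTTGAA or TTCGAA, searched on both strands, was present in 27 of these 33 (81.8%) and in 16.8% of the 15614 promoters of measured genes. CCAAT, also on both strands, was present in 25 (75.8%) and in 38.2% of all. Both motifs together were present in 23 (69.7%) and in 6.84% of all. In the narrower window from 100 bases before to 30 after the start, the shares with both were 48.5% and 1.59%.

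The promoters below are those of the brightest member of each role that holds TTTGAA or TTCGAA in that 130-base window; none of the mitotic kinases did. They are printed 5′ to 3′ on the strand of the gene, with both motifs in capitals in either orientation. They were picked for holding the element, which 19 of the 33 members held in this window (57.6%, against 6.15% of all promoters). In Cdca8 the last TTTGAA and ATTGG overlap. A match to these letters is a description of the sequence and not a measured site.
Ccnb2, chr9:70421525-70421654, minus strand: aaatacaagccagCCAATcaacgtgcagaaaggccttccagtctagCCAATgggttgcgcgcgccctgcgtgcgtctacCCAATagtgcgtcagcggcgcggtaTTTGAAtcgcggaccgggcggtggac
Cdca8, chr4:124936888-124937017, minus strand: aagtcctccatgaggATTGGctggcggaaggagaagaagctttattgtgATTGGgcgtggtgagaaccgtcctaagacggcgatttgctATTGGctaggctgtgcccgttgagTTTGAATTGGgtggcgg
Cdc20, chr4:118437314-118437443, minus strand: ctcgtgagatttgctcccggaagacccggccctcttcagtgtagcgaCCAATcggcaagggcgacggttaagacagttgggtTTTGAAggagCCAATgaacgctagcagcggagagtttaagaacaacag
Cenpa, chr5:30666786-30666915, plus strand: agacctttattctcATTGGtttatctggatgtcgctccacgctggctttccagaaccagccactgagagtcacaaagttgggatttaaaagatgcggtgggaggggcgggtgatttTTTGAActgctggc
Kif11, chr19:37376282-37376411, plus strand: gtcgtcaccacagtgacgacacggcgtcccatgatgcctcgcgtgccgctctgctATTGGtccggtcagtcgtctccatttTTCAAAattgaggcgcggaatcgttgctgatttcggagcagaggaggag
Anln, chr9:22389177-22389306, minus strand: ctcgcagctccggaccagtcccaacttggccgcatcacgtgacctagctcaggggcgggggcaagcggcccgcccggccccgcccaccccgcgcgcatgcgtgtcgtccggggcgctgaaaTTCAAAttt
Top2a, chr11:99024160-99024289, minus strand: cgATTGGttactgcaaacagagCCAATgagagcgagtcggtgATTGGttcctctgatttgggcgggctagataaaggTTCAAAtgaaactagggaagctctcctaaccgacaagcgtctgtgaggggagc

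The TTTGAA of Cdc20 began 18 bases before the annotated start, the same element on the other strand 19 bases before it in Kif11 and 23 bases before it in Top2a. In Ccnb2, Cdca8, Cenpa and Anln it began 5, 14, 17 and 22 bases after the start. All of them except Anln also held CCAAT or its reverse ATTGG within the window, 4 times in Cdca8 and 3 times each in Ccnb2 and Top2a. The 27 members with the element fell from ESC to RA in scrambled cells by a median of 0.75 on the log2 scale, and the 6 matched members without it by 0.73.

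In scrambled cells the mitosis genes were lower in RA than in ESC throughout the list. All 40 had both ESC arrays above both RA arrays, where 37.3% of all genes did. The members differed between replicates by a median of 0.04 to 0.12 log2 units in the scrambled and KD1 groups, and by 0.22 and 0.33 in the KD2 groups, which hold the displaced arrays. The median change was -0.72 on the log2 scale, against -0.04 over all 19938 genes. By limma with Benjamini-Hochberg adjustment over all genes, 36 of 40 fell over 12 arrays, where 5.66% of all genes fell and 8.14% rose, and 39 of 40 fell over 10 arrays, where 20.8% fell and 21.8% rose. None of the members rose. The exceptions over 12 arrays were Nusap1 (adjusted p = 0.0533), Nuf2 (0.0515), Kif4 (0.0623) and Smc4 (0.202), and over 10 arrays only Smc4 missed the threshold (log2 -0.30, adjusted p = 0.0962). None of the 12-array calls survived leaving out any 1 of the 8 scrambled and KD1 arrays, while over 10 arrays the same step left most calls in place. Calls over all genes also moved when these arrays were left out, and they did so for the leave-one-out counts below.

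**Figure D1:**
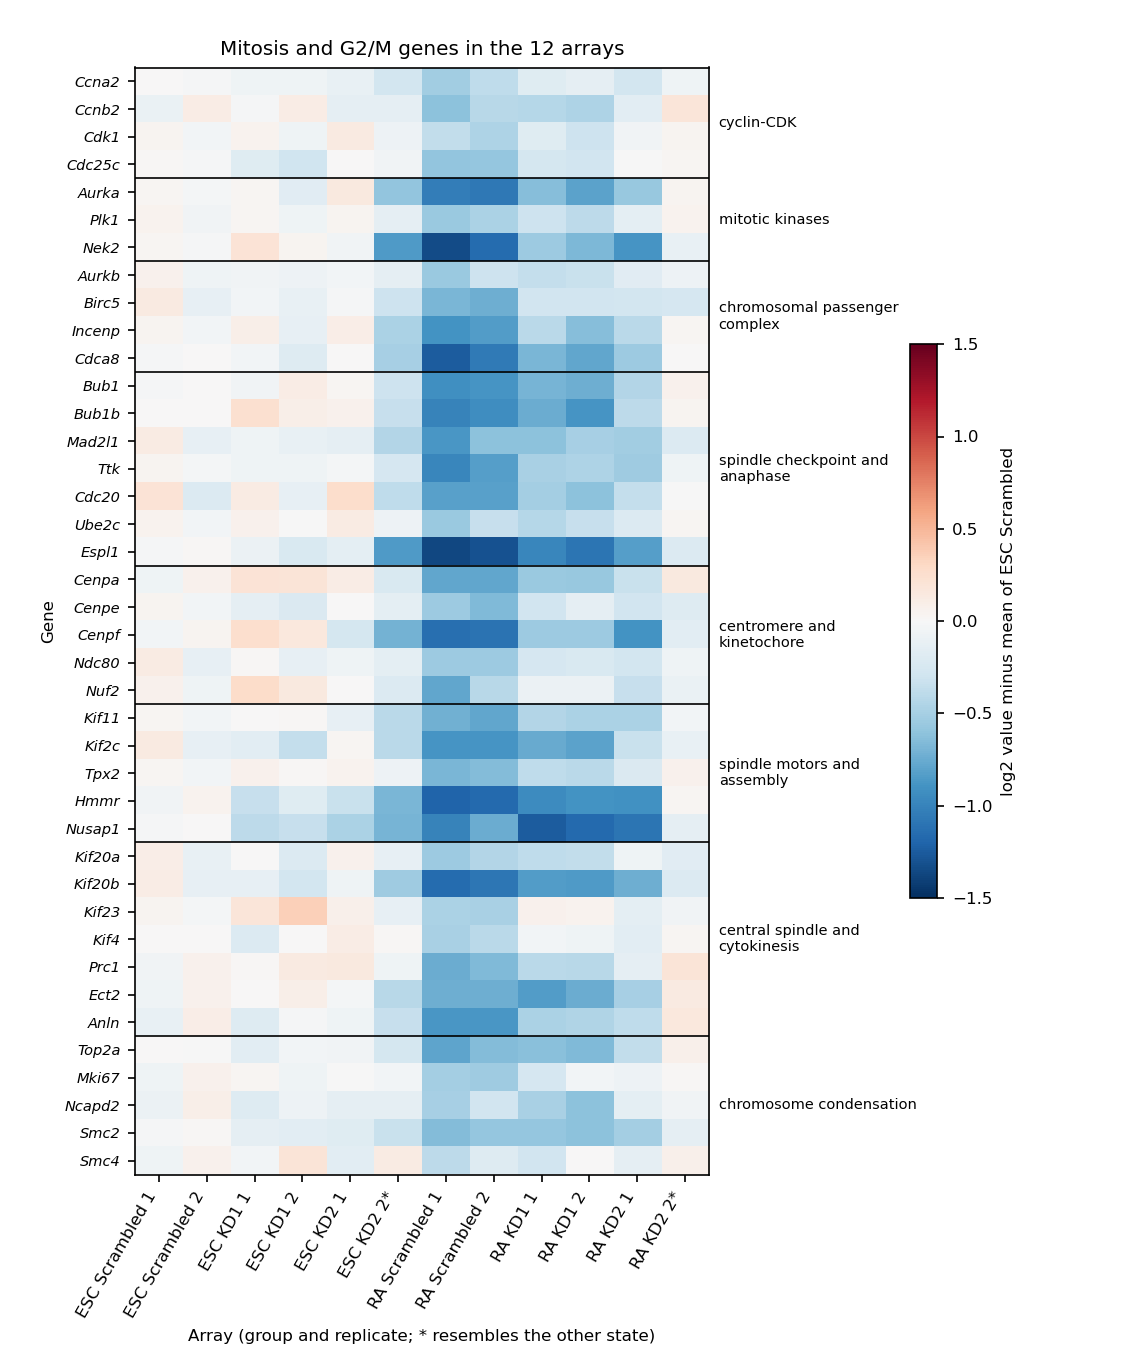
Heat map of the 40 genes (rows, in their role classes) in the 12 arrays (columns), as the log2 value minus the gene's mean in scrambled ESC; blue is lower and red is higher, and asterisks mark the displaced arrays. The scrambled RA columns are the bluest, with a median of 10.71 and 10.75 against 11.42 and 11.39 in scrambled ESC, and the displaced columns have medians of 11.12 (labelled ESC) and 11.46 (labelled RA).

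The largest fall was that of Espl1, which encodes separase, the protease that opens cohesin at anaphase. Its log2 values were 10.86 and 10.90 in scrambled ESC, 10.79 and 10.65 in KD1 ESC, 10.73 in KD2 ESC replicate 1, 9.52 and 9.57 in scrambled RA, 9.90 and 9.79 in KD1 RA, 10.05 in KD2 RA replicate 1, and 10.03 and 10.67 in the displaced arrays labelled ESC and RA. Every scrambled RA array lay more than a log2 unit below every scrambled ESC array, and the knockdown RA arrays lay between them. The fall in scrambled cells was -1.34 (to 39.6% of ESC), with SE 0.254 and adjusted p = 0.0325 over 12 arrays, and SE 0.105 and adjusted p = 1.48e-05 over 10.

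Nek2, a kinase that parts the centrosomes before mitosis, came next. It read 11.21 and 11.16 in scrambled ESC, 11.38 and 11.22 in KD1 ESC, 11.13 in KD2 ESC replicate 1, 9.84 and 10.02 in scrambled RA, 10.64 and 10.51 in KD1 RA, 10.30 in KD2 RA replicate 1, and 10.33 and 11.07 in the displaced arrays labelled ESC and RA. The scrambled RA arrays were the lowest of all 12, and they did not overlap any other group. The fall in scrambled cells was -1.25 (to 41.9%; adjusted p = 0.0405 over 12 arrays and 2.59e-05 over 10).

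Hmmr, a spindle-pole protein that binds hyaluronan outside the cell, followed. Its values were 10.85 and 10.95 in scrambled ESC, 10.56 and 10.72 in KD1 ESC, 10.57 in KD2 ESC replicate 1, 9.70 and 9.73 in scrambled RA, 9.96 and 10.00 in KD1 RA, 9.99 in KD2 RA replicate 1, and 10.21 and 10.93 in the displaced arrays labelled ESC and RA. Here too the scrambled RA pair was lowest, with all knockdown RA arrays above it. The fall was -1.18 (to 44.0%; adjusted p = 0.0397 over 12 arrays and 3e-05 over 10).

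In KD1 the members changed from ESC to RA by a median of -0.46, against -0.08 over all genes. The 40 members ranged from -0.98 for Bub1b to 0.04 for Kif4. Over 12 arrays 8 of 40 fell, where 4.26% of all genes fell and 7.02% rose: Bub1b, Ect2, Cenpa, Bub1, Top2a, Ccnb2, Tpx2 and Ncapd2. Over 10 arrays 29 of 40 fell, where 20.8% of all genes fell and 20.3% rose. Both ESC arrays lay above both RA arrays in 35 of 40, where 44.0% of all genes did; the other 5 were Cdc25c, Cenpe, Kif4, Mki67 and Smc4. The blocked fit over 12 arrays gave 18 (8.96% of all genes fell and 11.8% rose). The 12-array count was 22 without either ESC KD2 array, where 2305 and 2294 of all 19938 genes fell, and 20 without either RA KD2 array (2215 and 2214). It was 2 without either ESC scrambled array (292 and 294) and 1 without either RA scrambled array (176 and 178). No member was called without any 1 of the KD1 arrays, where calls over all genes dropped too.

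KD2 gave no call over 12 arrays, where each group mixes a displaced array with an undisplaced one. The count was 0 of 40, as it was for all genes (0.0% rose and 0.0% fell), and the median was -0.04. None of the 40 reached an unadjusted p below 0.05, which 344 of all 19938 genes did. Over 10 arrays, with 1 array per state, 14 of 40 fell, where 9.46% of all genes fell and 11.0% rose, and the median was -0.33. Nek2 (-0.83, adjusted p = 0.0061), Aurka (-0.71, adjusted p = 0.0097) and Espl1 (-0.68, adjusted p = 0.0127) led. The count of 14 was 7 without RA KD1 replicate 1 and 7 without RA KD1 replicate 2. The array labelled ESC KD2 replicate 2 lay below both scrambled ESC arrays for 37 of 40 (47.0% of all genes) and above both scrambled RA arrays for 40 of 40 (33.9%), and the array labelled RA KD2 replicate 2 lay above both scrambled RA arrays for 40 of 40 (48.5%).

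**Figure D2:**
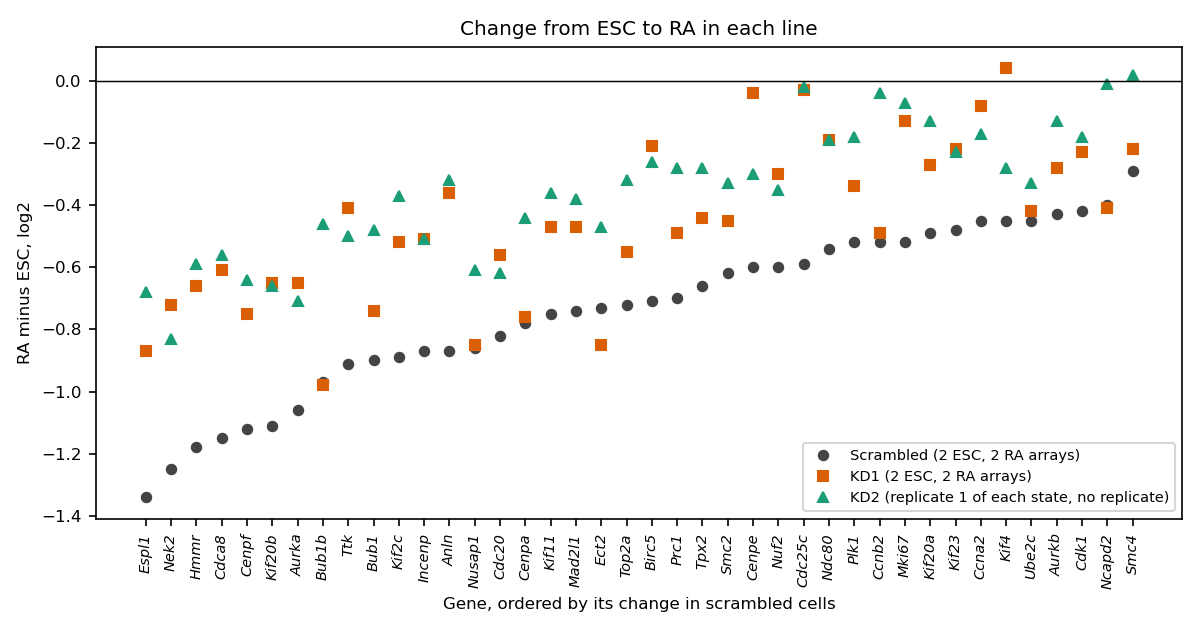
RA minus ESC on the log2 scale (vertical axis) for each of the 40 genes (horizontal axis, in the order of the scrambled change), with circles for scrambled and squares for KD1 (means of 2 arrays per state) and triangles for KD2 replicate 1 alone. The squares lie above the circles for 37 genes and the triangles lie above the circles for all 40. The KD1 change lay above the scrambled change for 8796 of all 19938 genes.

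The fall was smaller in KD1 than in scrambled cells for 37 of 40 members and larger for 3 (Ect2, Ncapd2 and Bub1b). Of all 19938 genes, 8796 had a KD1 change above the scrambled change. The KD1 and scrambled changes share no array, but replicate differences of these lines correlated at 0.633 in ESC and 0.15 in RA. The fit without a block does not take this up. The difference between the KD1 and scrambled changes was tested directly. Its median over the members was 0.28, against -0.03 over all genes, with the largest values for Cenpe (0.56, SE 0.16), Cdc25c (0.56, SE 0.16) and Cdca8 (0.54, SE 0.16). None of the 40 passed limma's adjusted threshold over 12 arrays (0.206% of all genes rose and 0.0552% fell) or over 10 (2.54% and 2.28%). At an unadjusted p below 0.05, 6 members were above 0 over 12 arrays and 16 over 10, with none below 0. Of all 19938 genes, 1601 passed that threshold in either direction over 12 arrays and 3503 over 10. Ccna2 came nearest to the threshold over 10 arrays (0.36, adjusted p = 0.0538). The blocked fit over 10 arrays called 14 of 40 above 0, among them Ccna2 (adjusted p = 0.0075), where 7.18% of all genes rose and 7.24% fell; over 12 arrays it called none (0.211% and 0.0502%). In KD2 replicate 1 the fall was smaller than in scrambled cells for all 40 members, and smaller than in KD1 for 27, with no replicate behind it. The shares of all genes for these KD2 counts were not computed.

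In ESC no member was called for the knockdown without a block. KD1 against scrambled gave a median of -0.06 and no call over 12 or 10 arrays; over 12 arrays 0.0201% of all genes rose and 0.0451% fell, and over 10 arrays 0.843% and 1.08%. At an unadjusted p below 0.05 by limma, 1 member was above 0 and 0 below over 12 arrays, and 2 above and 3 below over 10. Of all 19938 genes, 1507 passed that threshold in either direction over 12 arrays and 3142 over 10. Both KD1 arrays lay above both scrambled ESC arrays for 6 of 40, where 26.3% of all genes did, and below both for 11, where 18.9% did. KD2 against scrambled gave 0 calls too over 12 arrays (0.01% of all genes rose and 0.0752% fell) and over 10. Its medians were -0.14 over 12 arrays and -0.01 over 10. At an unadjusted p below 0.05, 1 member was below 0 over 12 arrays, where 2057 of all genes passed in either direction. The mean of both lines gave 0 calls with medians of -0.11 over 12 arrays and -0.05 over 10. Over all genes 0.0% rose and 0.0953% fell over 12 arrays, and 0.537% and 0.502% over 10. At an unadjusted p below 0.05, 0 and 2 members were below 0, where 1296 and 2529 of all genes passed in either direction. Nusap1 was the lowest member in both lines: both KD1 arrays (11.39 and 11.44) and KD2 replicate 1 (11.30) lay below the scrambled pair (11.76 and 11.79). That difference was -0.36 in KD1 (adjusted p = 0.136 over 10 arrays) and -0.48 in KD2 (adjusted p = 0.147). The blocked fit over 10 arrays called Nusap1 and Kif2c lower and Kif23 higher in KD1 (6.53% of all genes fell and 3.99% rose), and Nusap1 lower in KD2 (0.978% and 3.24%) and in the mean of both lines (2.69% and 3.45%); over 12 arrays it called no member in ESC.

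After retinoic acid the members stood higher in the knockdown lines than in scrambled cells. In KD1 37 of 40 were above 0, where 9623 of all 19938 genes were, with a median of 0.27 against -0.01 over all genes. Both KD1 arrays lay above both scrambled arrays for 31 of 40, where 26.0% of all genes did, and below both for 2 (Nusap1 and Ect2), where 30.6% did. Over 12 arrays only Kif23 passed limma's adjusted threshold (1.58% of all genes rose and 0.742% fell). Over 10 arrays 11 rose, where 5.39% of all genes rose and 6.69% fell: Nek2, Cenpf, Kif23, Nuf2, Cdca8, Ttk, Birc5, Anln, Mki67, Ccna2 and Kif11. No member fell. The blocked fit called 25 higher and Nusap1 lower over 10 arrays, where 10.1% of all genes rose and 13.9% fell, and no member over 12 (1.8% and 0.873%). The count of 11 was 1 without RA KD1 replicate 1, 2 without RA KD1 replicate 2, 3 without RA scrambled replicate 1 and 5 without RA scrambled replicate 2.

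KD2 was set against the same 2 scrambled RA arrays, so this comparison shares its controls with that of KD1. Its median was 0.54 over 12 arrays, which include the displaced one, and 0.37 from replicate 1 alone. No member passed limma's adjusted threshold over 12 arrays (0.0251% of all genes rose and 0.246% fell) or over 10 (0.326% and 0.637%). At an unadjusted p below 0.05, 36 members were above 0 over 12 arrays, where 2590 of all 19938 genes passed in either direction. That fit includes the displaced array, which resembled ESC. From replicate 1 alone 39 of 40 were above 0, where 11319 of all 19938 genes were. The blocked fit over 10 arrays called 18 of 40 higher, where 1.99% of all genes rose and 3.06% fell, and over 12 arrays none (0.015% and 0.176%). The 12-array count was 17 without RA KD2 replicate 1, which leaves only the displaced array in that group. Replicate 1 and both KD1 arrays together lay above both scrambled arrays for 31 of 40, where 17.1% of all genes did.

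With both lines averaged the difference in RA was 0.43 in the median over 12 arrays, with no call (0.532% of all genes rose and 0.607% fell). At an unadjusted p below 0.05, 31 members were above 0, where 2566 of all 19938 genes passed in either direction. Over 10 arrays the median was 0.33 and 18 of 40 rose, where 2.67% of all genes rose and 3.38% fell. These were Cdca8, Nek2, Anln, Cdc25c, Kif23, Prc1, Birc5, Aurka, Mki67, Espl1, Ttk, Cenpf, Bub1b, Tpx2, Cenpa, Bub1, Kif11 and Ccna2. The largest rises were Cdca8 (0.52, to 143% of scrambled; adjusted p = 0.0217), Nek2 (0.51; adjusted p = 0.0212) and Anln (0.45; adjusted p = 0.018). The blocked fit over 10 arrays called 34 higher and Nusap1 lower (7.16% of all genes rose and 9.46% fell), and over 12 arrays none (0.517% and 0.602%). The 18 calls rest on few arrays: the count was 0 without RA KD1 replicate 1, RA KD1 replicate 2 or RA scrambled replicate 1, 3 without RA scrambled replicate 2, and 8 without either ESC KD1 array. Between KD1 and KD2 in RA, none of the 40 was called by limma over 12 arrays (1.18% of all genes rose and 0.16% fell) or over 10 (2.41% and 1.31%). At an unadjusted p below 0.05 over 12 arrays, 14 were below 0, where 2692 of all 19938 genes passed in either direction. The KD2 group of that fit holds the displaced array. The median was -0.30 over 12 arrays and -0.14 over 10, where KD2 has a lone array. The blocked fit over 10 arrays called 6 lower in KD1 (4.45% of all genes fell and 5.19% rose), and over 12 none (0.166% and 1.36%). Members were called over 12 arrays only when RA KD2 replicate 1 was left out. That step leaves only the displaced array, which resembled ESC, in the KD2 group.

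**Figure D3:**
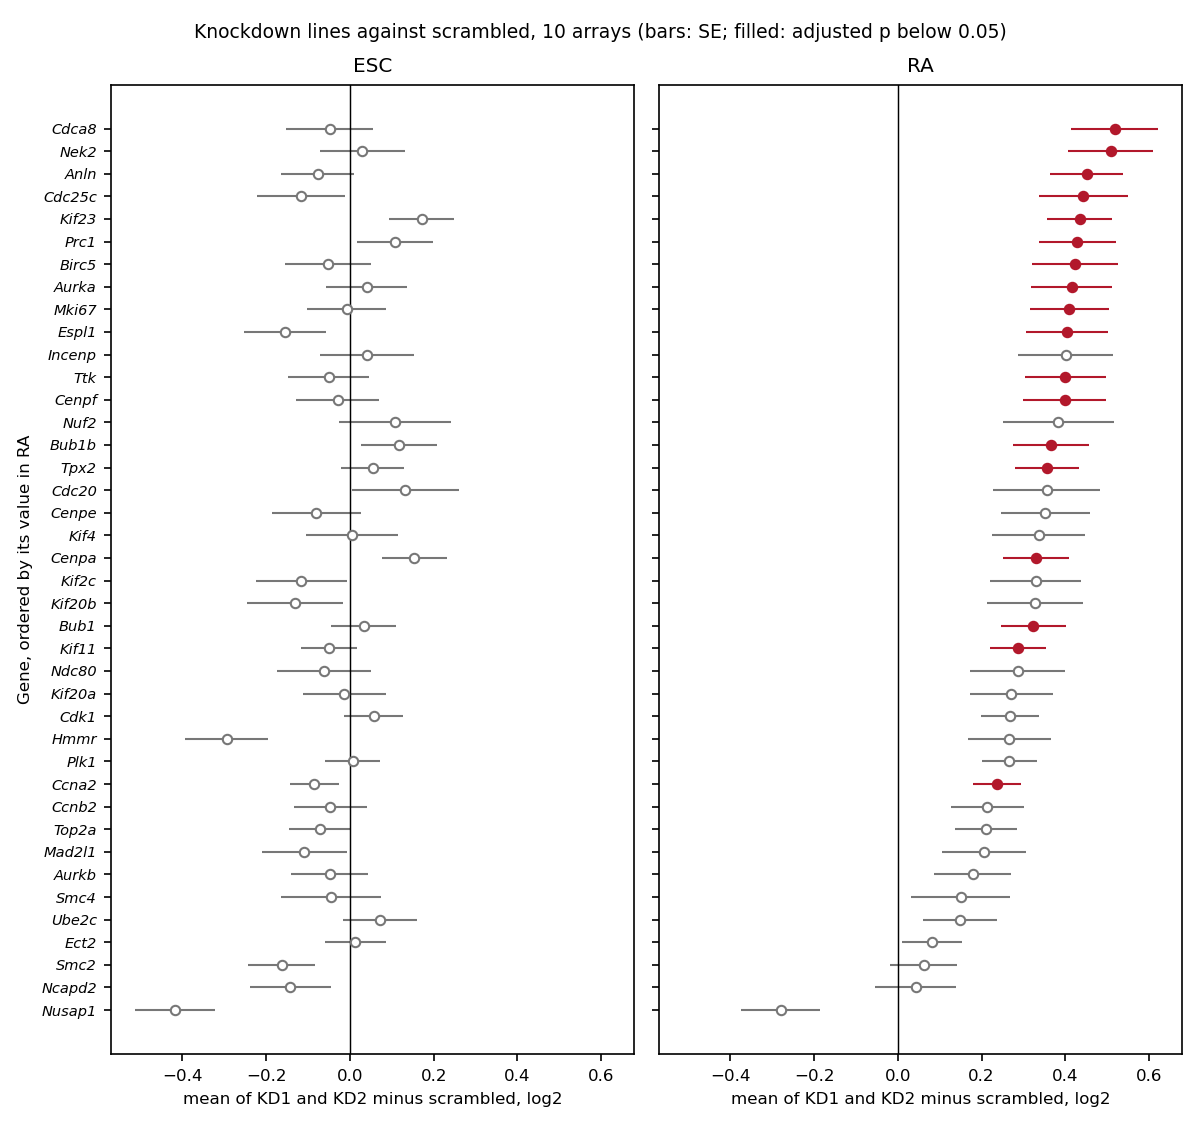
Mean of KD1 and KD2 minus scrambled on the log2 scale (horizontal axis) for the 40 genes (vertical axis), in ESC on the left and RA on the right, over 10 arrays; bars are the SE and filled points passed an adjusted p below 0.05. No point is filled in ESC and 18 are filled in RA, and Nusap1 lies below 0 in both.

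Other differentiation markers moved with this comparison. The median of 8 extraembryonic endoderm markers was 9.46 and 9.42 in scrambled RA, 12.39 and 12.44 in KD1 RA and 10.37 in KD2 RA replicate 1. All 8 rose in KD1 over 10 arrays, where 5.39% of all genes rose, and 4 of 8 over 12, where 1.58% did. The median of 8 ESC markers was 9.15 and 10.16 in scrambled RA, 9.50 and 8.98 in KD1 and 10.49 in KD2 replicate 1. Of these 8, 1 was called lower in KD1 over 10 arrays, where 6.69% of all genes fell. The 7 retinoic acid response genes had medians of 11.40 and 10.89, 10.46 and 10.39, and 10.75 in the same order. For 8 fibroblast markers the medians were 9.02 and 8.96, 8.56 and 8.36, and 8.73, and the medians of 7 neural markers lay between 8.02 and 8.23 in these arrays. No marker was at 0 in any array. The part of these differences in the higher mitosis signal of the knockdown RA arrays was not tested.

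Among the cyclins and their kinase, all 4 members fell in scrambled cells over 12 and over 10 arrays, by 0.42 for Cdk1 to 0.59 for Cdc25c. Ccna2, cyclin A2, read 12.70 and 12.67 in scrambled ESC, 12.62 and 12.62 in KD1 ESC, 12.58 in KD2 ESC replicate 1, 12.17 and 12.31 in scrambled RA, 12.51 and 12.56 in KD1 RA, 12.42 in KD2 RA replicate 1, and 12.42 and 12.62 in the displaced arrays labelled ESC and RA. The scrambled RA arrays stood apart from all the others, and the undisplaced knockdown RA arrays, at 12.42 to 12.56, lay between them and the undisplaced ESC arrays. In KD1 the RA change was -0.08 (adjusted p = 0.499 over 12 arrays), and in RA KD1 stood 0.30 above scrambled (adjusted p = 0.169 over 12 arrays and 0.0159 over 10). Cdc25c, the phosphatase that switches Cdk1 on, ran from 9.39 to 9.43 in scrambled ESC, 8.82 to 8.83 in scrambled RA and 9.12 to 9.15 in KD1 RA. Its RA change was -0.59 in scrambled cells and -0.03 in KD1. Ccnb2, cyclin B2, fell in both lines over 12 arrays, by 0.52 in scrambled cells and by 0.49 in KD1. Cdk1, the kinase that the cyclins activate, fell by 0.42 in scrambled cells and changed by -0.23 in KD1 (adjusted p = 0.111 over 12 arrays and 0.0335 over 10).

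The mitotic kinases had the largest median fall of the 8 role classes. All 3 fell in scrambled cells over 12 arrays, with a median of -1.06. Aurka, Aurora A of the centrosome and spindle poles, read 11.40 and 11.34 in scrambled ESC, 11.40 and 11.20 in KD1 ESC, 11.52 in KD2 ESC replicate 1, 10.33 and 10.30 in scrambled RA, 10.73 and 10.57 in KD1 RA, 10.80 in KD2 RA replicate 1, and 10.78 and 11.41 in the displaced arrays labelled ESC and RA. Its scrambled RA pair lay a full log2 unit below scrambled ESC, and each knockdown RA array except the displaced one fell in the gap. The change was -1.06 in scrambled cells and -0.65 in KD1. Plk1, polo-like kinase 1, moved less. Its values were 12.51 and 12.41 in scrambled ESC, 12.49 and 12.40 in KD1 ESC, 12.50 in KD2 ESC replicate 1, 11.90 and 11.99 in scrambled RA, 12.15 and 12.07 in KD1 RA, 12.31 in KD2 RA replicate 1, and 12.33 and 12.51 in the displaced arrays labelled ESC and RA. Groups ran in the order scrambled RA, KD1 RA and KD2 RA replicate 1, with the undisplaced ESC arrays on top. Plk1 fell by 0.52 in scrambled cells (adjusted p = 0.0308 over 12 arrays) and changed by -0.34 in KD1 (adjusted p = 0.0531).

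**Figure D4:**
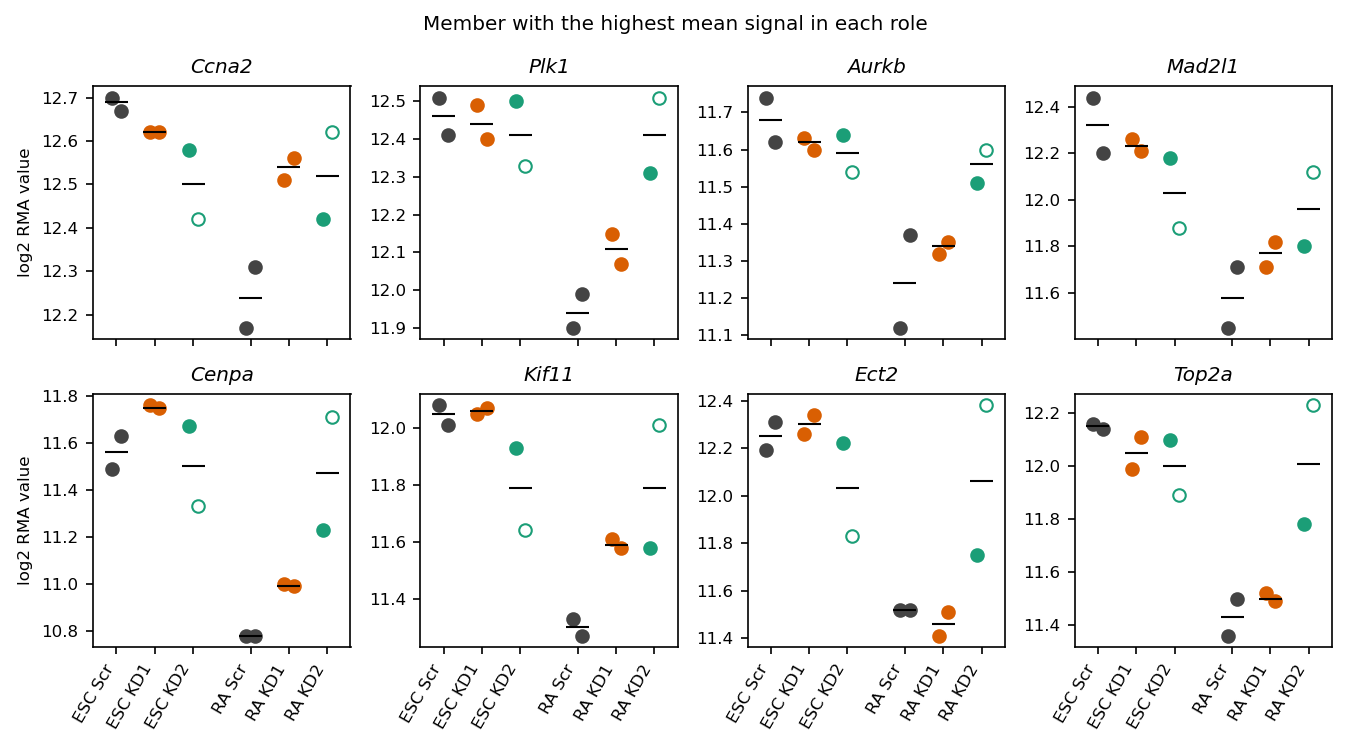
Log2 values of the member with the highest mean in each role class (8 panels, each with its own vertical axis that does not start at 0); each point is 1 array, open points are the displaced arrays and bars are group means of 2 arrays. In every panel the scrambled RA arrays lie below the scrambled ESC arrays, and in Ect2 the KD1 RA arrays (11.41 and 11.51) lie at or below the scrambled RA arrays (11.52 and 11.52).

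The chromosomal passenger complex joins the kinase Aurkb to Incenp, Birc5 (survivin) and Cdca8 (borealin), and corrects faulty attachments. All 4 members fell in scrambled cells over 12 arrays, with a median of -0.79. Cdca8 read 10.94 and 10.97 in scrambled ESC, 10.92 and 10.77 in KD1 ESC, 10.97 in KD2 ESC replicate 1, 9.71 and 9.90 in scrambled RA, 10.28 and 10.18 in KD1 RA, 10.41 in KD2 RA replicate 1, and 10.46 and 10.96 in the displaced arrays labelled ESC and RA. Its scrambled RA arrays were the lowest and its KD2 array the highest of the undisplaced RA arrays. The RA change was -1.15 in scrambled cells and -0.61 in KD1, and KD1 stood 0.43 above scrambled in RA (adjusted p = 0.501 over 12 arrays and 0.0384 over 10).

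Aurkb showed the smallest change of the complex in scrambled cells. It read 11.74 and 11.62 in scrambled ESC, 11.63 and 11.60 in KD1 ESC, 11.64 in KD2 ESC replicate 1, 11.12 and 11.37 in scrambled RA, 11.32 and 11.35 in KD1 RA, 11.51 in KD2 RA replicate 1, and 11.54 and 11.60 in the displaced arrays labelled ESC and RA. KD1 RA arrays fell inside the span of the scrambled RA pair, so the lines overlapped. Its change was -0.43 in scrambled cells and -0.28 in KD1, where that of Birc5 was smaller (-0.21). Birc5 went from 10.65 to 10.90 in scrambled ESC to 10.04 to 10.08 in scrambled RA, and to 10.48 in both KD1 RA arrays. Incenp, the scaffold of the complex, went from 10.76 to 10.84 to 9.90 to 9.96, with KD1 RA at 10.16 and 10.39.

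The spindle checkpoint and anaphase genes all fell in scrambled cells, 7 of 7 over 12 arrays, with a median of -0.90. In KD1 2 of 7 fell over 12 arrays (Bub1 and Bub1b) and 7 of 7 over 10. Bub1b encodes BubR1, which holds Cdc20 in check. Its values were 11.41 and 11.42 in scrambled ESC, 11.65 and 11.50 in KD1 ESC, 11.48 in KD2 ESC replicate 1, 10.41 and 10.48 in scrambled RA, 10.67 and 10.52 in KD1 RA, 11.02 in KD2 RA replicate 1, and 11.07 and 11.45 in the displaced arrays labelled ESC and RA. The ESC and RA arrays separated widely in both lines, and KD1 ESC was the highest pair. Bub1b fell by 0.97 in scrambled cells (adjusted p = 0.0307 over 12 arrays) and by 0.98 in KD1 (adjusted p = 0.0166). Bub1, the kinase that recruits it to kinetochores, fell by 0.90 in scrambled cells and by 0.74 in KD1.

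Mad2l1, the checkpoint protein that is loaded on unattached kinetochores, was the brightest of this class. It read 12.44 and 12.20 in scrambled ESC, 12.26 and 12.21 in KD1 ESC, 12.18 in KD2 ESC replicate 1, 11.45 and 11.71 in scrambled RA, 11.71 and 11.82 in KD1 RA, 11.80 in KD2 RA replicate 1, and 11.88 and 12.12 in the displaced arrays labelled ESC and RA. The KD1 RA arrays (11.71 and 11.82) touched the upper scrambled RA array (11.71). Its change was -0.74 in scrambled cells and -0.47 in KD1. Ttk, the kinase Mps1 at the head of the checkpoint, fell by 0.91 in scrambled cells and changed by -0.41 in KD1 (adjusted p = 0.12 over 12 arrays and 0.0115 over 10). Cdc20, which activates the anaphase-promoting complex, had the widest replicate gap in scrambled ESC (11.99 and 11.58), and fell to 10.98 and 10.97 in scrambled RA. Ube2c, which supplies ubiquitin to that complex, changed least of this class in scrambled cells (-0.45) and by -0.42 in KD1.

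At the centromere and kinetochore, 4 of 5 members fell in scrambled cells over 12 arrays and 5 of 5 over 10. Cenpa, the histone H3 variant that marks the centromere, read 11.49 and 11.63 in scrambled ESC, 11.76 and 11.75 in KD1 ESC, 11.67 in KD2 ESC replicate 1, 10.78 and 10.78 in scrambled RA, 11.00 and 10.99 in KD1 RA, 11.23 in KD2 RA replicate 1, and 11.33 and 11.71 in the displaced arrays labelled ESC and RA. All RA arrays except the displaced one lay below all ESC arrays. The fall was -0.78 in scrambled cells (adjusted p = 0.0374 over 12 arrays) and -0.76 in KD1 (adjusted p = 0.0299).

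Cenpf, a large kinetochore protein that builds up in G2, differed more between lines. Its values were 10.24 and 10.32 in scrambled ESC, 10.53 and 10.44 in KD1 ESC, 10.02 in KD2 ESC replicate 1, 9.15 and 9.17 in scrambled RA, 9.73 and 9.74 in KD1 RA, 9.38 in KD2 RA replicate 1, and 9.57 and 10.12 in the displaced arrays labelled ESC and RA. KD1 was the highest line in both states among the undisplaced arrays. The change was -1.12 in scrambled cells and -0.75 in KD1, and KD1 stood 0.58 above scrambled in RA (SE 0.241, adjusted p = 0.371 over 12 arrays; SE 0.106, adjusted p = 0.0082 over 10). Nuf2, a partner of Ndc80 in the microtubule-binding complex, went from 9.65 to 9.79 in scrambled ESC to 8.94 to 9.30 in scrambled RA, with 9.63 in both KD1 RA arrays. Ndc80 itself fell by 0.54 in scrambled cells and changed by -0.19 in KD1. Cenpe, the kinesin that moves chromosomes to the spindle equator, fell by 0.60 in scrambled cells and changed by -0.04 in KD1.

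Of the spindle motors and assembly factors, 4 of 5 fell in scrambled cells over 12 arrays and 5 of 5 over 10. Kif11, the motor that pushes the spindle poles apart, read 12.08 and 12.01 in scrambled ESC, 12.05 and 12.07 in KD1 ESC, 11.93 in KD2 ESC replicate 1, 11.33 and 11.27 in scrambled RA, 11.61 and 11.58 in KD1 RA, 11.58 in KD2 RA replicate 1, and 11.64 and 12.01 in the displaced arrays labelled ESC and RA. The undisplaced knockdown RA arrays lay at 11.58 to 11.61, above both scrambled RA arrays. The change was -0.75 in scrambled cells and -0.47 in KD1, and KD1 stood 0.29 above scrambled in RA (adjusted p = 0.492 over 12 arrays and 0.0277 over 10). Tpx2, the activator of Aurora A on the spindle, fell by 0.66 in scrambled cells and by 0.44 in KD1 (adjusted p = 0.0498 over 12 arrays). Kif2c, which takes microtubules apart at the centromere, fell by 0.89 in scrambled cells. Nusap1, which bundles spindle microtubules, was the only member below scrambled in all undisplaced knockdown RA arrays: its KD1 RA arrays (10.53 and 10.61) and its KD2 RA replicate 1 (10.69) all lay below the scrambled RA arrays (10.78 and 11.04). The KD1 difference in RA was -0.34 (adjusted p = 0.71 over 12 arrays, 0.0635 over 10 and 0.00629 in the blocked fit over 10), close to its difference in ESC.

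In the central spindle and cytokinesis class, 6 of 7 members fell in scrambled cells over 12 arrays and 7 of 7 over 10. Kif23, the motor of centralspindlin, was the only member to pass in KD1 against scrambled over 12 arrays. Its values were 11.65 and 11.58 in scrambled ESC, 11.79 and 11.97 in KD1 ESC, 11.69 in KD2 ESC replicate 1, 11.14 and 11.12 in scrambled RA, 11.67 and 11.66 in KD1 RA, 11.46 in KD2 RA replicate 1, and 11.49 and 11.56 in the displaced arrays labelled ESC and RA. Both KD1 RA arrays reached the level of scrambled ESC, and KD1 ESC lay above scrambled ESC as well. KD1 stood 0.54 above scrambled in RA (SE 0.105, adjusted p = 0.0379 over 12 arrays; SE 0.084, adjusted p = 0.00391 over 10) and 0.27 above it in ESC (adjusted p = 0.603 over 12 arrays and 0.167 over 10). The difference between its KD1 and scrambled RA changes was 0.27 and was not called (SE 0.148, adjusted p = 0.759 over 12 arrays). Without any 1 of the 8 scrambled and KD1 arrays the 12-array call was lost, as it was in the blocked fit (adjusted p = 0.0577).

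Anln, anillin of the contractile ring, read 11.93 and 12.14 in scrambled ESC, 11.85 and 12.02 in KD1 ESC, 11.98 in KD2 ESC replicate 1, 11.17 and 11.17 in scrambled RA, 11.56 and 11.59 in KD1 RA, 11.66 in KD2 RA replicate 1, and 11.69 and 12.20 in the displaced arrays labelled ESC and RA. The scrambled RA arrays were alike and lowest, and the undisplaced knockdown RA arrays lay above them and below all undisplaced ESC arrays. Its change was -0.87 in scrambled cells and -0.36 in KD1. Ect2 switches on RhoA at the division plane. It read 12.19 and 12.31 in scrambled ESC, 12.26 and 12.34 in KD1 ESC, 12.22 in KD2 ESC replicate 1, 11.52 and 11.52 in scrambled RA, 11.41 and 11.51 in KD1 RA, 11.75 in KD2 RA replicate 1, and 11.83 and 12.38 in the displaced arrays labelled ESC and RA. The KD1 RA arrays did not rise above the scrambled RA arrays, and KD2 RA replicate 1 did. Ect2 fell by 0.73 in scrambled cells and by 0.85 in KD1 (adjusted p = 0.0325 over 12 arrays). Of the rest, Kif20b fell by 1.11, Prc1, which bundles the central spindle, by 0.70, Kif20a by 0.49 and the chromokinesin Kif4 changed by -0.45 in scrambled cells (adjusted p = 0.0623 over 12 arrays).

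The chromosome condensation class had the lowest median of the 8 classes for the mean of the knockdown lines against scrambled in RA (0.15 over 10 arrays). In scrambled cells 4 of 5 fell over 12 arrays and over 10. Top2a, topoisomerase II alpha, which untangles sister chromatids, read 12.16 and 12.14 in scrambled ESC, 11.99 and 12.11 in KD1 ESC, 12.10 in KD2 ESC replicate 1, 11.36 and 11.50 in scrambled RA, 11.52 and 11.49 in KD1 RA, 11.78 in KD2 RA replicate 1, and 11.89 and 12.23 in the displaced arrays labelled ESC and RA. The KD1 RA arrays overlapped the scrambled RA pair, and the KD2 array lay above both. It fell by 0.72 in scrambled cells and by 0.55 in KD1 (adjusted p = 0.0458 over 12 arrays). The condensin subunits Smc2 and Ncapd2 fell by 0.62 and 0.40 in scrambled cells, and their KD1 RA values stood 0.02 above and -0.16 from scrambled (adjusted p = 0.983 and 0.691 over 12 arrays). Smc4, the other core subunit, overlapped between KD1 ESC and RA. Mki67, Ki-67 of the chromosome surface, fell by 0.52 in scrambled cells and changed by -0.13 in KD1, and was 0.38 higher in KD1 RA than in scrambled RA (adjusted p = 0.17 over 12 arrays and 0.0423 over 10).

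Other genes of the same machinery were read from ESC to RA in scrambled cells too. Of 104 further genes of the kinetochore, spindle, anaphase-promoting complex, cohesin and condensin, and G2/M control, 42 fell and 1 rose in scrambled cells over 12 arrays, and 71 fell and 10 rose over 10, with a median of -0.53. Over all genes 5.66% fell and 8.14% rose over 12 arrays, and 20.8% and 21.8% over 10. Of 16 subunits and regulators of the anaphase-promoting complex, 1 fell and none rose over 12 arrays, and 5 fell and 3 rose over 10, with a median of -0.08. Fbxo5, which blocks the complex, fell by 1.35 (adjusted p = 0.0404 over 12 arrays and 0.000409 over 10). Its subunits Anapc4 (0.45), Anapc2 (0.41) and Cdc16 (0.29) rose over 10 arrays and were not called over 12 (adjusted p = 0.143, 0.11 and 0.165). Of 17 G2/M control genes, 7 fell and none rose over 12 arrays, and 12 fell and 3 rose over 10. The checkpoint kinases Chek2 (-2.01) and Chek1 (-1.22) led the falls in both fits, and the cyclin Ccng2 (2.04) rose over 10 arrays and was not called over 12 (adjusted p = 0.0596). Of 27 S phase genes 19 fell over 12 arrays and 23 over 10, with a median of -0.76 against -0.72 for the members.

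Regulators and brakes of the cycle moved as well. Of 22 regulators of G2/M transcription, 2 fell over 12 arrays and 10 over 10, and none rose. Mybl2, B-Myb, the activator that works with MuvB, fell furthest. It read 11.95 to 12.04 in the 5 undisplaced ESC arrays, 9.69 and 9.95 in scrambled RA, 10.73 and 10.51 in KD1 RA, 10.53 in KD2 RA replicate 1, and 10.38 and 11.97 in the displaced arrays labelled ESC and RA. Its scrambled RA arrays were the lowest. The fall was -2.16 in scrambled cells, and in RA KD1 stood 0.80 above scrambled (adjusted p = 0.658 over 12 arrays and 0.0025 over 10). The difference between the KD1 and scrambled RA changes was called for Mybl2 over 10 arrays (0.77, adjusted p = 0.03) and was not over 12 (adjusted p = 0.945). Of 14 CDK inhibitors and G1 cyclins, 3 rose and 1 fell over 12 arrays (8.14% and 5.66% of all genes), and 6 rose and 2 fell over 10 (21.8% and 20.8%). Cdkn2b (2.24) and Cdkn2a (2.00) rose in both fits, and Ccnd2 (3.34) over 10 arrays only (adjusted p = 0.0554 over 12).

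The mean of the knockdown lines against scrambled in RA was read in these lists too. Over all genes 2.67% rose and 3.38% fell in it over 10 arrays, and 0.532% and 0.607% over 12. Of the 104 further genes 7 rose and 3 fell over 10 arrays, with a median of 0.17, and 1 rose and 1 fell over 12. Of the 27 S phase genes 1 rose over 10 arrays (Orc1, 0.65, adjusted p = 0.00724), with a median of 0.15. Of the 14 CDK inhibitors and G1 cyclins, Cdkn2a was called, at -0.61 over 10 arrays (adjusted p = 0.019), and was not over 12 (adjusted p = 0.374). These shares were not tested against each other.

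**Figure D5:**
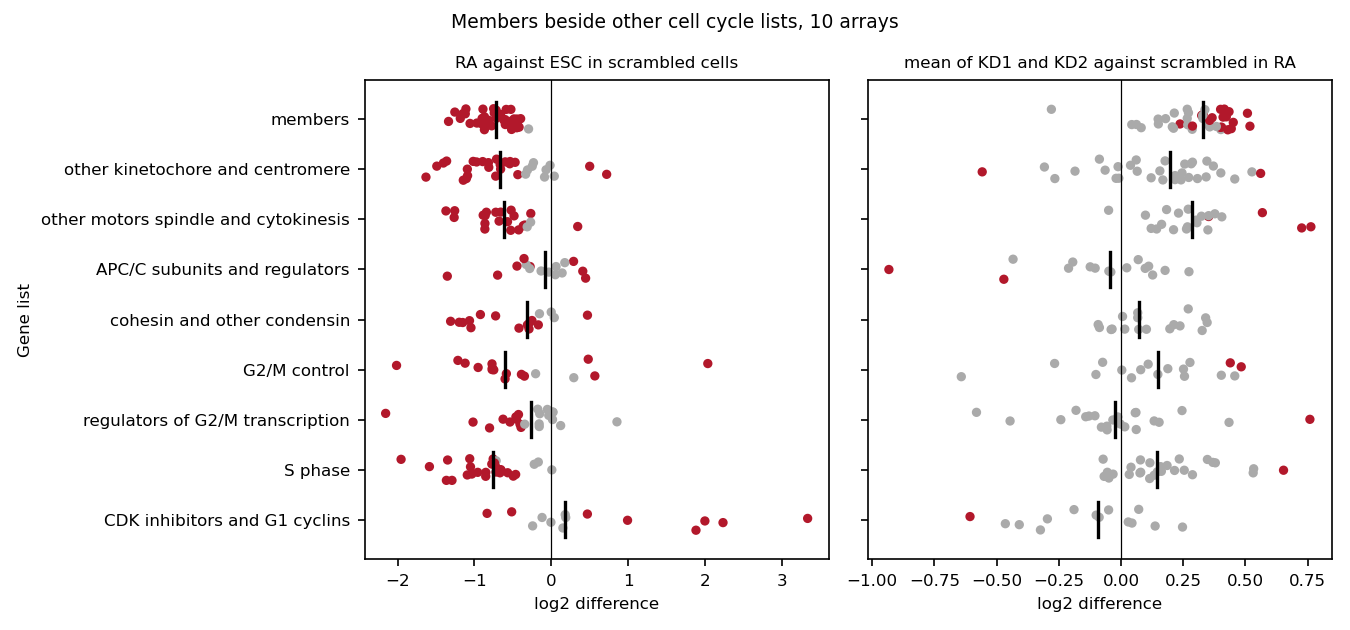
Log2 differences of single genes (points; red passed an adjusted p below 0.05) in the 40 members and 8 other cell cycle lists (vertical axis) over 10 arrays, for RA against ESC in scrambled cells on the left and the mean of KD1 and KD2 against scrambled in RA on the right; vertical bars are list medians. On the left the members (median -0.72) and the S phase genes (-0.76) lie lowest, and on the right the members have the highest median (0.33).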

How the data were processed

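The deposited table holds log2 values of 35556 probe sets on 12 arrays, which the authors made by RMA (named in the submitters' processing notes, version not given); array medians lay between 7.17 and 7.24. RMA brings arrays to 1 distribution, so a shift shared by all genes would not be seen. The platform annotation listed 23410 probe sets, 21789 of them with 1 symbol, 1621 with several and 12146 not listed; 21698 matched RefSeq (GRCm38.p6) by gene ID. The brightest probe set with 1 symbol stood for a gene, which gave 19938 genes.

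Limma 3.58.1 in R 4.3.3 fitted 6 group means with an intensity trend over 12 arrays (6 residual and 2.76 prior degrees of freedom) and over the 10 arrays without the displaced pair (4 and 4.93). The 11 comparisons were adjusted by Benjamini-Hochberg over all genes, with calls made below an adjusted p of 0.05. With the replicate number as a block within each state, 4 and 2 residual degrees of freedom remained. The scripts were tested on simulated data. With 2 arrays per line and state, labelled biological replicates, the p-values reflect the variation among arrays of a line and not among lines, and the number of arrays limits precision. Members, gene lists and marker lists were chosen with earlier results of these data known. Values in every array are given for the brightest member of each role and for up to 3 called members with the largest change in each comparison, and other genes are named only among the 3 largest called changes of a list. Figures were drawn with matplotlib 3.10.9.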

Additional observations from a re-analysis of the deposited data

How the results depend on the processing

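Over 12 arrays 36 members fell from ESC to RA in scrambled cells, 8 in KD1 and 0 in KD2, and 1 rose in KD1 against scrambled in RA. Without the 2 displaced arrays these counts were 39, 29, 14 and 11, and the mean of the knockdown lines in RA went from 0 to 18. Only the groups compared in the fit gave 29 for RA against ESC in KD1, where 4301 of all 19938 genes fell and 4272 rose. The same setting gave 15 for KD1 against scrambled in RA, where 2090 of all genes fell and 1556 rose. A filter on genes whose highest group mean lay above the median of all values gave 14 for RA against ESC in KD1 (1103 of 12834 genes fell and 1769 rose). It gave 1 for the mean of the lines in RA (87 fell and 107 rose). A fit with no intensity trend gave 1 for the latter (116 of 19938 genes fell and 104 rose).

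No label ties the replicate numbers to a day or batch. A replicate block gave 0 for RA against ESC in scrambled cells (62 of all 19938 genes fell and 176 rose), 4 in KD1 (420 and 955), and 0 for KD1 against scrambled in RA (113 and 275). A replicate block within each state gave 40, 18 and 0. With that block 11.5% of all genes fell from ESC to RA in scrambled cells over 12 arrays and 25.6% over 10. In KD1 8.96% fell over 12 arrays and 26.5% over 10. Over 10 arrays with a replicate block within each state, the counts were 40 for RA against ESC in scrambled cells, 34 in KD1, 18 in KD2, 26 for KD1 against scrambled in RA, 18 for KD2 against scrambled in RA, 35 for the mean of the lines in RA, 14 for the difference between the KD1 and scrambled RA changes, 6 for KD1 against KD2 in RA, and 3, 1 and 1 for KD1, KD2 and their mean against scrambled in ESC.

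Leaving out 1 array in turn, the counts ranged over 12 arrays from 0 to 39 for RA against ESC in scrambled cells, 0 to 22 in KD1, 0 to 1 for KD1 against scrambled in RA, 0 to 17 for KD2 against scrambled in RA, 0 to 12 for the mean of the lines in RA and 0 to 9 for KD1 against KD2 in RA. Over 10 arrays the ranges were 36 to 39, 22 to 30 (24, 27 and 24 without ESC KD1 replicate 1, ESC KD1 replicate 2 and RA KD1 replicate 1), 1 to 12 (5 without RA Scrambled replicate 2), 0 to 1, 0 to 21 (20 without ESC Scrambled replicate 1) and 0, with 7 to 15 for RA against ESC in KD2 (13 without either RA Scrambled array) and 0 to 1 for the difference between the KD1 and scrambled changes. The RA change in KD2 turned positive for Aurka (0.33 and 0.26), Nek2 (0.36 and 0.34) and Espl1 (0.33 and 0.29) without ESC KD2 replicate 1 and without RA KD2 replicate 1, which leave a displaced array alone in its group; without ESC KD2 replicate 2 the values were -0.41, -0.45 and -0.37. The highest 12-array counts for KD2 against scrambled, the mean of the lines and KD1 against KD2 in RA came without RA KD2 replicate 1. That step leaves only the displaced array in its group. Calls over all genes also moved between the leave-one-out fits. The cause of the other moves was not tested.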

Other observations

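A few genes of the wider machinery differed between the arrays of a knockdown line and the scrambled arrays in both states, apart from the mitosis genes themselves. Each knockdown line may be a single clone, and neighbouring genes on the chromosome were not examined here. The parts of the knockdown and of the line in these differences were not tested. Anapc4, a scaffold subunit of the anaphase-promoting complex, lay at 10.51 and 10.24 in scrambled ESC and at 9.28 to 9.89 in the 4 arrays labelled knockdown ESC, displaced array included. In RA it lay at 10.87 and 10.77 against 9.45 to 10.00. The mean difference was -0.82 in ESC and -0.93 in RA over 10 arrays (adjusted p = 0.0274 and 0.00392), and over 12 arrays -0.78 and -1.07 (adjusted p = 0.337 and 0.0316). Cdc16, another subunit of that complex, had -0.58 in ESC and -0.47 in RA over 10 arrays (adjusted p = 0.0274 and 0.0176) and was not called over 12 (adjusted p = 0.407 and 0.139).

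Bora, the cofactor through which Aurora A activates Plk1, was higher in KD1. It read 11.37 in both KD1 ESC arrays and 11.07 and 11.04 in KD1 RA, while the scrambled arrays read 10.34 and 10.29 in ESC and 9.61 and 9.88 in RA, and the KD2 arrays 10.10 to 10.27 in ESC and 9.97 to 10.20 in RA. The KD1 difference was 1.05 in ESC (adjusted p = 0.0576 over 12 arrays and 0.00376 over 10) and 1.31 in RA (adjusted p = 0.00294 over 12 arrays and 0.000157 over 10). Oip5, which loads Cenpa at centromeres, differed from scrambled by -0.63 in KD1 ESC and by -0.69 in KD1 RA (adjusted p = 0.0443 and 0.0082 over 10 arrays), and was not called over 12 (adjusted p = 0.652 and 0.31). It was also lower than scrambled in KD2 replicate 1, at 9.46 against 10.17 and 10.35 in ESC. In RA it read 8.86 there against 9.25 and 9.32.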
